A study of Caenorhabditis elegans with 2 samples.

Results

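The flp, nlp and ins genes of Caenorhabditis elegans encode secreted peptides, and their 5′ ends were examined here for chromatin immunoprecipitation (ChIP-seq) peaks of ZTF-11. They were taken by name, as protein-coding genes called flp-, nlp- or ins- followed by a digit in the WBcel235 annotation, and numbered 140 of 19985 protein-coding genes. The families held 31 flp, 71 nlp and 38 ins genes. ZTF-11, a zinc finger factor of the Myt1 family, was immunoprecipitated as an eGFP fusion from whole L3 larvae, in 2 biological replicates of 1 group. All animals were of strain OP236, with the genotype unc-119(ed3) III; wgIs236, and their sex was recorded as pooled male and female. The tagged protein came from the integrated transgene wgIs236, and neurons were not separated from other tissues. Binding limited to a few neurons could be diluted by the chromatin of all other cells, which was not tested. No strain without the tag was analysed here.

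The flp genes encode FMRFamide-like peptides, the nlp genes a mixed group of other neuropeptide-like proteins, and the ins genes insulin-like peptides that act on the receptor DAF-2. Most are made as precursors in neurons, cut by proprotein convertases such as EGL-3, trimmed by the carboxypeptidase EGL-21 and released from dense core vesicles. Some nlp genes are expressed instead in the epidermis, where their glycine-rich products belong to the antimicrobial defence. Factors of the Myt1 family are known as repressors that act during the formation of neurons.

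The values come from peak lists on the ce11 assembly, each made by the authors. The replicate 1 list held 30000 peaks and the replicate 2 list 2036, and the list from both replicates pooled held 631. A thresholded list of 96 was drawn from these by the irreproducible discovery rate. The pooled list is labelled as peaks and background, the input of that step, so its entries can be background. Entries of the replicate lists can be background as well, since their -log10 q-values at members went down to 0.124 in replicate 1 and 0.0237 in replicate 2. A peak has a signal score from the authors' caller, whose scale the sources used here do not state, and a rank by that score within its list. A gene was counted when a summit lay within 1000 bp of its annotated 5′ end, and the strongest such peak stood for the gene. Read depth is unknown. Intervals are exact Clopper-Pearson 95% intervals, which cover counting error only and treat genes as independent. No test over genes was run, so every share is a description set beside the share over all protein-coding genes.

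The sequences round 4 summits are shown first: 2 from genes with a peak in both replicates, for the features found there, and 2 from weaker peaks of replicate 2 alone, as examples of the Myt1-family word. They are windows of 201 bases centred on the summit, read from the RefSeq sequence of WBcel235 and printed 5′ to 3′ on the strand of the gene. The ins-39 window, at chrX:1344966-1345166 on the minus strand, is that of the pooled peak. Its capitals, CCCTGCGC, are the reverse complement of GCGCAGGG, which reads on the plus strand. The word GCGCAGGG is the core of the motif to which the dosage compensation complex is recruited on X. The ins-13 window, at chrII:5544175-5544375 on the minus strand, is that of the replicate 1 peak, and its capitals mark the 99 bases that belong to sls-2.3, which encodes an SL2 spliced leader RNA. The nlp-43 window, at chrIII:5042115-5042315, and the flp-24 window, at chrIII:725224-725424, are those of replicate 2 peaks on the plus strand. Their capitals mark AAGTTT, the core of Myt1-family sites, on either strand.
ins-39: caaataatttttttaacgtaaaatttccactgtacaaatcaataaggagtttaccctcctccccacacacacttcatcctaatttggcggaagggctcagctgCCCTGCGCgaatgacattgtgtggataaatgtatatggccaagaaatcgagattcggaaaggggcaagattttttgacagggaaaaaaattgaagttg
ins-13: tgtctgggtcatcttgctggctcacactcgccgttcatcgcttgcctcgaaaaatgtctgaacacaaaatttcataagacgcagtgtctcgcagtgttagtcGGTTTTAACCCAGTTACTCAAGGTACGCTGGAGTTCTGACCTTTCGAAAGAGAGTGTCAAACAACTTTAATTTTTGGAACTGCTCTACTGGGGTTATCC
nlp-43: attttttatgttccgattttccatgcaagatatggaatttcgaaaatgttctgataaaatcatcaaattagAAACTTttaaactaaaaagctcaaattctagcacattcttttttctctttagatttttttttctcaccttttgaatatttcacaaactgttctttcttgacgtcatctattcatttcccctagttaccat
flp-24: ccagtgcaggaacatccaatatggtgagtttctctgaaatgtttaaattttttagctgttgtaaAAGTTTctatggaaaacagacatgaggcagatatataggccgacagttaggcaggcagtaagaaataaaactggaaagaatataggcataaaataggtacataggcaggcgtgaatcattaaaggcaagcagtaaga

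In each list taken alone and at a distance of 1000 bp, the interval of the share of the 3 families together took in the share over all protein-coding genes. In replicate 1, 73 of the 140 neuropeptide genes had a peak (52.1%, interval 43.5 to 60.7), against 48.9% of all protein-coding genes. At that background 68.4 of 140 genes would have one. In replicate 2, 9 of 140 had a peak (6.43%, interval 2.98 to 11.9), against 4.86% of all protein-coding genes. With replicate 1 read at the same list length, as its 2036 strongest peaks, 11 of 140 had one (7.86%, interval 3.99 to 13.6), against 4.21%. The pooled list had a peak at 2 of 140 genes (1.43%, interval 0.173 to 5.07), against 1.64%. The thresholded list had a peak at 0 of 140, against 0.260% of all protein-coding genes, a share that would give 0.364 genes. All 140 genes are thus outside the authors' final list at this distance.

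**Figure D1:**
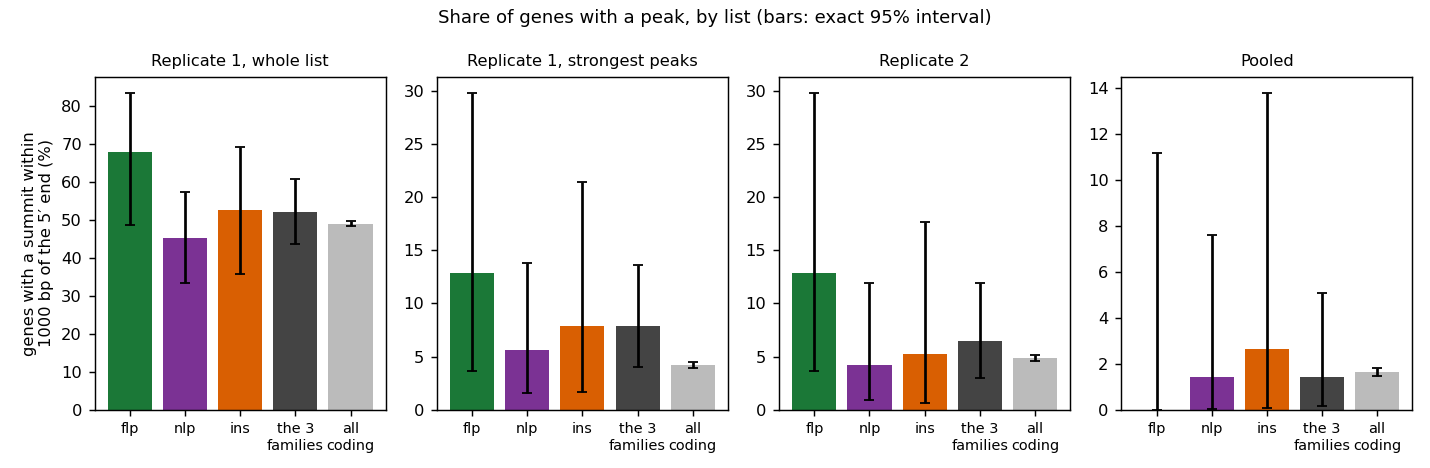
Share of genes (%, vertical axis) with a summit within 1000 bp of the 5′ end, for flp, nlp and ins genes, the 3 families together and all protein-coding genes, in 4 readings of the lists; each panel has its own scale and error bars are exact 95% intervals. The share of flp genes is the highest in the first 3 panels (67.7% in replicate 1), and its interval there reaches down to 48.6%, below the 48.9% of all protein-coding genes.

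By family, a replicate 1 peak was found at 21 of 31 flp genes (67.7%, interval 48.6 to 83.3), at 20 of 38 ins genes (52.6%, interval 35.8 to 69.0) and at 32 of 71 nlp genes (45.1%, interval 33.2 to 57.3). The 3 intervals overlapped each other, and each took in the 48.9% of all protein-coding genes. The flp interval left out the background under 3 other ways of counting: upstream summits alone (51.6%, interval 33.1 to 69.8, against 26.1%), the 5′ end of any transcript (74.2%, interval 55.4 to 88.1, against 52.9%) and each peak given to its nearest gene alone (67.7%, interval 48.6 to 83.3, against 44.0%). Under the other alternatives the flp interval took in the background. It was 45.2% at 500 bp (interval 27.3 to 64.0, against 29.4%) and 80.6% at 2000 bp (interval 62.5 to 92.5, against 72.2%). All of these are recounts of the same 31 genes. In replicate 2 the counts were 4 flp genes (12.9%, interval 3.63 to 29.8), 2 ins genes (5.26%, interval 0.644 to 17.7) and 3 nlp genes (4.23%, interval 0.880 to 11.9). Each of these intervals took in the 4.86% of all protein-coding genes. The flp family was the highest in both replicates, but on 4 genes in replicate 2. Of these, flp-24 and flp-25 had no replicate 1 peak, and the summits of the replicates at flp-15 lay 1246 bp apart. With upstream summits alone the flp share in replicate 2 was 3.23%, against 3.03% of all protein-coding genes. The pooled list had a peak at 0 of 31 flp, 1 of 71 nlp and 1 of 38 ins genes, against 1.64%.

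The families also differ in where they lie. X carried 41.9% of flp genes, 26.8% of nlp genes and 5.26% of ins genes, against 13.7% of all protein-coding genes. When the background was taken chromosome by chromosome it was 50.1% for flp, 49.3% for nlp and 50% for ins genes in replicate 1. Taking whole chromosomes thus moved the replicate 1 background little. Position within a chromosome was not taken into account. On X, 10 of 13 flp genes had a replicate 1 peak (76.9%), against 52.8% of X-linked protein-coding genes. On the autosomes 11 of 18 did (61.1%), against 48.3%. In replicate 2, 0 of 13 flp genes on X had a peak, against 3.84% of X-linked protein-coding genes, and 4 of 18 on the autosomes did (22.2%), against 4.96%.

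The signal scores of the strongest replicate 1 peak at the 73 genes ran from 6.33 to 20.8 with a median of 9.67, against a median of 9.35 over the 9764 protein-coding genes with a peak. By family the median score was 10 for flp, 9.35 for nlp and 8.04 for ins genes. The best rank of any member was 267 of 30000, while the strongest replicate 1 peak near any protein-coding gene had rank 2 and a score of 62.5. In replicate 2 the 9 scores ran from 15.1 to 19 with a median of 15.8, against a median of 16.7 over 972 genes. All 9 had -log10 q-values of 0.0237 to 0.185, and those of the 73 replicate 1 genes ran from 0.124 to 1.69. The lower this value, the weaker the statistical support for a listed peak. That support was thus weak for all 9 replicate 2 peaks.

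**Figure D2:**
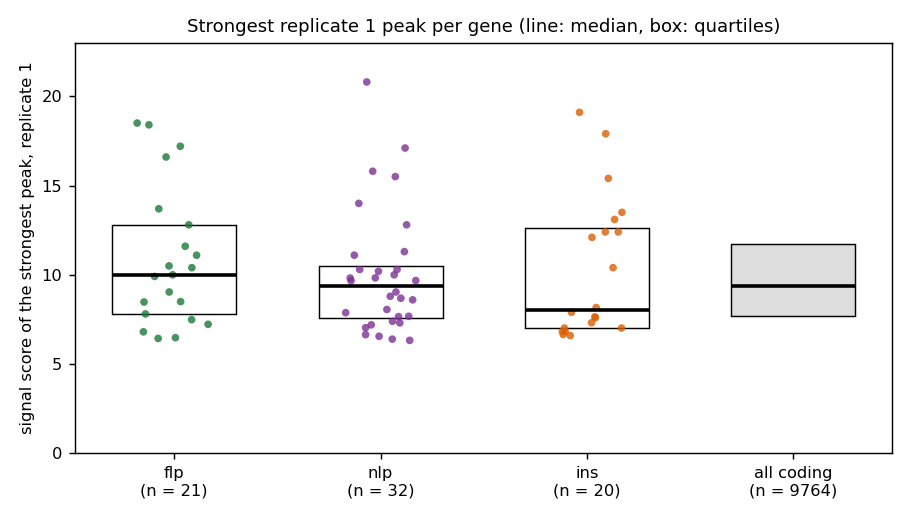
Signal score (vertical axis, authors' scale) of the strongest replicate 1 peak of each flp, nlp and ins gene, with points for genes, lines for medians and boxes for quartiles; the grey box is that of all protein-coding genes with a peak. The medians of 10, 9.35 and 8.04 lie within the quartiles of all protein-coding genes, 7.71 to 11.7.

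The summits lay on both sides of the 5′ ends. In replicate 1, 33 of 73 lay upstream (45.2%), against 43.8% of all protein-coding genes with a peak. By family 13 of 21 flp, 9 of 20 ins and 11 of 32 nlp summits were upstream. The median distance was 539 bp, against 488 bp over all protein-coding genes. It was 441 bp for flp, 499 bp for nlp and 579 bp for ins genes. Of the 73 summits, 36 lay between protein-coding genes, 29 in the gene itself and 8 in another protein-coding gene. For 64 of the 73, no other protein-coding gene had a closer 5′ end. Just inside the distance lay the closest summits of nlp-61 at 955 bp and nlp-3 at 940 bp, and just outside that of nlp-76 at 1099 bp and flp-13 at 1256 bp.

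**Figure D3:**
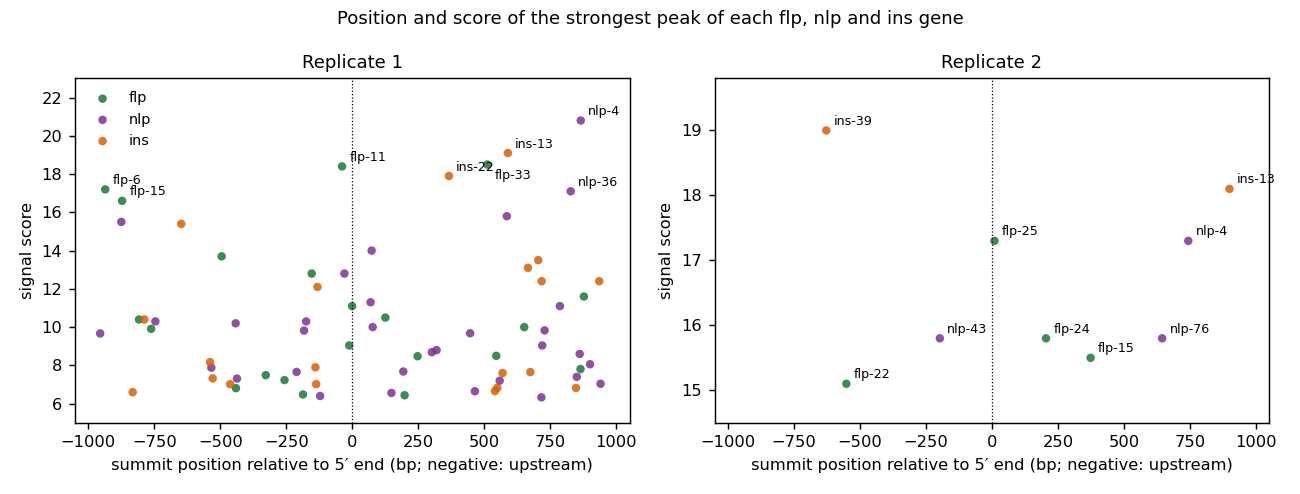
Position of the strongest summit relative to the 5′ end (horizontal axis, bp, negative upstream) and its signal score (vertical axis, authors' scale, not starting at 0) for each flp, nlp and ins gene with a peak in replicate 1 or replicate 2. The summits are spread over the whole window on both sides, and the highest scores of replicate 1, nlp-4 with 20.8 and ins-13 with 19.1, lie downstream.

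In both replicate lists, 5 of the 140 genes had a peak (3.57%, interval 1.17 to 8.14), against 3.11% of all protein-coding genes. They were ins-39, nlp-4, ins-13, flp-15 and flp-22. Of the 9 members with a replicate 2 peak these 5 were 55.6%, against 63.9% of the 972 protein-coding genes with one. At 4 of the 5, all but flp-15, the strongest peaks of the replicates overlapped by at least 1 bp. The overlap was 319 bp at ins-39, 219 bp at nlp-4, 83 bp at flp-22 and 29 bp at ins-13. The summits lay 21, 121, 257 and 311 bp apart at these genes. An overlap of at least 1 bp was found at 44.4% of the 9 members with a replicate 2 peak, against 27.6% of all 972 protein-coding genes with one. When replicate 1 was limited to its 2036 strongest peaks, 4 of the 140 genes had a peak in both (2.86%, interval 0.784 to 7.15), against 0.555% of all protein-coding genes. These were ins-39, nlp-4, ins-13 and flp-15. The interval of this count, which was taken after the data were seen, left out the background. Of the 4, nlp-4 and ins-13 had peaks beside small RNA genes and flp-15 had peaks at different positions, as described below, and without peaks near small RNA genes the count was 2 of 140 (1.43%, interval 0.173 to 5.07), against 0.49%. With summits counted only within 500 bp of the 5′ end, it was 0 of 140, against 0.21%. The interval then took in the background, as it did with upstream summits alone and with peaks above the median score. It left the background out at 2000 bp (5%, interval from 2.03, against 1.41%). It did so with any base of the peak (3.57%, from 1.17, against 0.706%). The same held for the 5′ end of any transcript (2.86%, from 0.784, against 0.726%) and the nearest gene alone (2.14%, from 0.444, against 0.405%).

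Of the insulin-like genes, ins-39 (WBGene00017668, X 1343758 to 1344421, minus strand) had the highest member score in replicate 2 and in the pooled list. Its peak had a score of 15.4 in replicate 1 (rank 1759), 19 in replicate 2 (rank 392) and 39.2 in the pooled list (rank 112). The summits lay 648, 627 and 645 bp upstream, so the replicates placed it within 21 bp of each other. The peaks overlapped by 319 bp. The pooled score came close to 41.0, the lowest of the thresholded list. The pooled -log10 q-value was 0.804, with 1.23 in replicate 1 and 0.185 in replicate 2. The summit is intergenic, and the closest 5′ end of a snoRNA, snRNA, tRNA or rRNA gene was 34608 bp from the pooled summit. The 51 bases round the summit of either replicate occur once in the assembly.

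The ins-39 window was the one with GCGCAGGG among the members. That word was looked for, on both strands, after an excess of it at X peaks of these lists was known, and it does not overlap AAGTTT. It lay within 100 bp of 1 of 71 member summits in replicate 1 (1.41%), against 34 of all 30000 (0.113%). On X it lay at 18 of 5797 replicate 1 summits (0.311%), 12 of 351 replicate 2 summits (3.42%) and 13 of 131 pooled summits (9.92%). Away from X it lay at 0.0661% of replicate 1, 0.0593% of replicate 2 and 0.200% of pooled summits. The ins-39 peak was one of the 13 pooled X peaks with the word. AAGTTT was not in its window.

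The insulin-like gene ins-13 (WBGene00002096, II 5544512 to 5544864, minus strand) lies next to genes of the SL2 spliced leader RNA, which is added to the 5′ ends of messenger RNAs from operons. Its strongest peak had a score of 19.1 in replicate 1 (rank 478), 589 bp downstream, and 18.1 in replicate 2 (rank 540), 900 bp downstream. The replicate 1 summit lay 2 bp from the 5′ end of sls-2.3, whose RNA begins at the capitals in the window above. The replicate 2 summit lay 309 bp from that end, and the peaks overlapped by 29 bp. The same replicate 2 peak overlapped another replicate 1 peak, with a score of 38.4, by 82 bp. The thresholded peak closest to any member was also here, at II 5543541 to 5543860, with its summit 1163 bp from the 5′ end of ins-13 and 103 bp from that of sls-2.2. Its score was 67.4 in the thresholded list, with 38.4 (rank 9) in replicate 1 and 32.1 (rank 56) in replicate 2. It was thus stronger in both replicates than any peak counted for the 140 genes, and closer to a spliced leader gene than to ins-13. The first 50 bases of the sls-2.3 RNA occur 4 times in the assembly, while the 51 bases round each ins-13 summit occur once. The next closest member was nlp-24, 5728 bp from a thresholded summit.

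The neuropeptide-like gene nlp-4 (WBGene00003742, I 10517321 to 10518055, minus strand) had the strongest replicate 1 peak of the 140 genes. Its score was 20.8 in replicate 1 (rank 267), 17.3 in replicate 2 (rank 731) and 30.5 in the pooled list (rank 281). The summits lay 865, 744 and 865 bp downstream of the 5′ end, past the end of this short gene. The replicate 1 and pooled summits lay 40 bp from the 5′ end of the snoRNA gene F59C6.15 and the replicate 2 summit 161 bp from it.

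Peaks near small RNA genes were counted for all members, after those at nlp-4 and ins-13 had been seen. The strongest peak had a snoRNA, snRNA, tRNA or rRNA gene starting no more than 500 bp from its summit at 3 of 73 members in replicate 1 (4.11%), against 2.14% of all protein-coding genes with a peak. They were nlp-4, ins-13 and flp-23, whose summit lay 58 bp from a tRNA gene. In the 2036 strongest peaks of replicate 1 the count was 2 of 11 (18.2%), against 6.42%, and in replicate 2 it was 2 of 9 (22.2%), against 4.63%. Without such peaks the share of the 140 genes with a replicate 1 peak was 50.7%, against 48.1% of all protein-coding genes. In replicate 2 it was 5%, against 4.66%, and in the pooled list 0.714%, against 1.43%, where ins-39 remained. The part of the small RNA genes in these peaks was not tested.

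**Figure D4:**
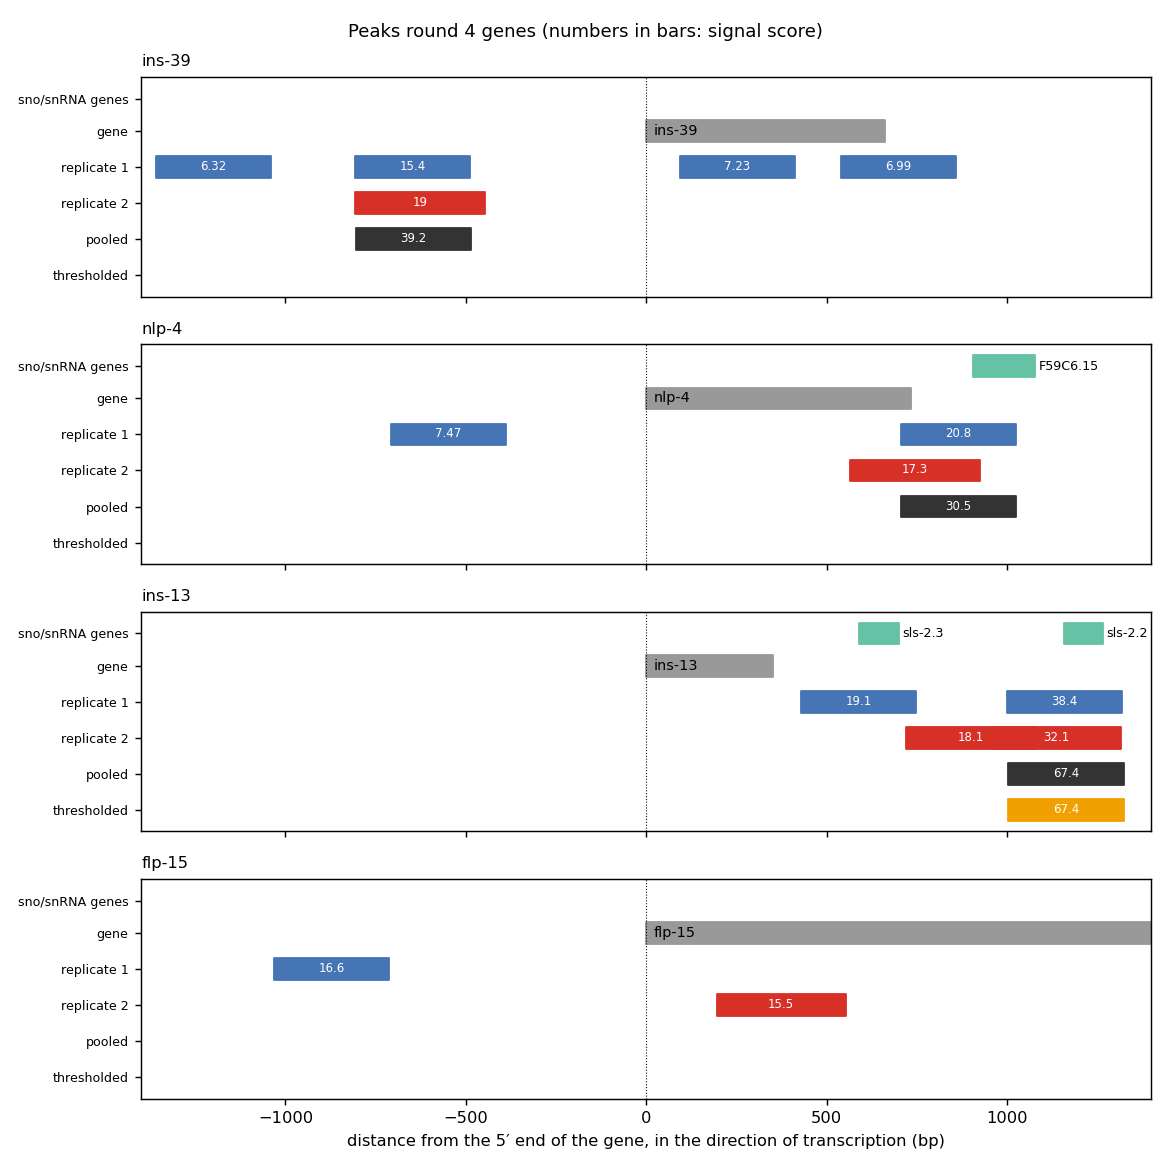
Peaks of the 4 lists (bars, with their signal scores) round the 5′ ends of ins-39, nlp-4, ins-13 and flp-15, with the gene in grey and snoRNA and snRNA genes in green; the horizontal axis is the distance from the 5′ end in bp, in the direction of transcription. At ins-39 the replicates and the pooled list share 1 position upstream, at nlp-4 and ins-13 the shared peaks lie beside small RNA genes, and at flp-15 the replicate peaks do not overlap.

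Of the flp genes in both lists, flp-15 (WBGene00001458, III) had a score of 16.6 in replicate 1 (rank 1137) and 15.5 in replicate 2 (rank 1444). Its summits lay 872 bp upstream in replicate 1 and 374 bp downstream, in an intron, in replicate 2. These are different positions, 1246 bp apart. The other, flp-22 (WBGene00009562, I), had 10.4 in replicate 1 (rank 9422), 808 bp upstream, and 15.1 in replicate 2 (rank 1735), 551 bp upstream. A weaker replicate 1 peak at flp-22, with a score of 8.08, lay 22 bp from the replicate 2 summit.

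A replicate 2 peak without one of replicate 1 within 1000 bp of the 5′ end was found at 4 of the 140 genes (2.86%), against 1.76% of all protein-coding genes. They were flp-25, flp-24, nlp-43 and nlp-76. At flp-25 the summit lay 10 bp downstream of the 5′ end, with a score of 17.3 (rank 746), and it was the member summit closest to a 5′ end in replicate 2. At flp-24, one of the peptide genes of the sleep-inducing neuron ALA, the summit lay 205 bp downstream in an intron, with a score of 15.8 (rank 1304). At nlp-43 it lay 197 bp upstream with 15.8 (rank 1308), and at nlp-76 it lay 645 bp downstream in an intron with 15.8 (rank 1310). The closest replicate 1 summit was 454 bp away from the nlp-76 summit and 1228 to 3213 bp away from the other 3. These peaks thus rest on 1 replicate.

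AAGTTT lay within 100 bp of 16 of 71 member summits in replicate 1 (22.5%), against 6938 of 30000 (23.1%), both strands counted. In replicate 2 it lay at 6 of 9 member summits (66.7%), against 700 of 2036 (34.4%). With only 9 summits and no interval, no excess at members is read from these shares. The 6 were those of flp-15, flp-22, flp-24, ins-13, nlp-43 and nlp-76. The 3 without it were ins-39, nlp-4 and flp-25. Replicate 2 windows were richer in A and T, with a median GC content of 34.3% at members and 33.8% over all windows, against 40.3% and 40.8% in replicate 1. Among the 5 genes in both lists, flp-15 was the one with the word at the summits of both replicates. A match is a description of the sequence and not evidence of a bound site.

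The remaining strong peaks of replicate 1 were at genes with no replicate 2 summit within 1000 bp of the 5′ end. Among flp genes these were flp-33 (score 18.5, rank 584, 511 bp downstream in an intron), flp-11 (18.4, rank 613, 39 bp upstream), flp-6 (17.2, rank 929, 936 bp upstream) and flp-32 (13.7, rank 3129, 495 bp upstream). The peptides of flp-11 are known to be released by the neuron RIS and to promote sleep, and its summit was the one closest to a 5′ end among the 11 members in the 2036 strongest peaks. Among nlp genes these were nlp-36 (17.1, rank 968, 827 bp downstream), nlp-68 (15.8, rank 1517, 585 bp downstream in an intron), nlp-81 (15.5, rank 1708, 875 bp upstream) and nlp-24 (14.0, rank 2835, 73 bp downstream). The nlp-36 summit lay in an exon of dars-1. Among ins genes these were ins-22 (17.9, rank 731, 366 bp downstream in its own exon), ins-37 (13.5, rank 3316, 704 bp downstream) and ins-6 (13.1, rank 3829, 665 bp downstream). The ins-6 peptide is known to promote exit from the dauer stage. In replicate 2 the summit closest to the 5′ end of ins-6 lay 1053 bp away, just outside the distance, as did that of nlp-68 at 1032 bp. These distances are from the 5′ end, so a replicate 2 peak can lie nearer to the replicate 1 summit.

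Many ins genes stand in clusters. Of the 39 members with a gene of the same family within 10000 bp, 24 were ins, 12 nlp and 3 flp genes. A replicate 1 peak was found at 22 of these 39 (56.4%) and at 51 of the 101 others (50.5%), against 48.9% of all protein-coding genes. In replicate 2 the counts were 1 of 39 (2.56%) and 8 of 101 (7.92%), against 4.86%. Peaks can be shared by neighbours: 1 replicate 1 peak served both ins-19 and ins-31 and 1 served both nlp-31 and nlp-34, so the 73 genes rest on 71 peaks.

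The 11 nlp genes of the epidermal antimicrobial class, nlp-24 to nlp-34, had a replicate 1 peak at 6 (54.5%, against 48.9% of all protein-coding genes) and a replicate 2 peak at 0 (against 4.86%). Besides nlp-24 with 14.0, the scores were 10.3 for the peak shared by nlp-31 and nlp-34, 8.80 for nlp-26, 7.66 for nlp-29 and 6.65 for nlp-27. The nlp-29 gene is known to be induced by fungal infection, and its summit lay 211 bp upstream. The 5 without a peak were nlp-25, nlp-28, nlp-30, nlp-32 and nlp-33. None of the 11 was among the 2036 strongest replicate 1 peaks (against 4.21%) or in the pooled list (against 1.64%).

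Neither replicate had a peak at 63 of the 140 genes (45%), against 49.4% of all protein-coding genes. They were 8 flp, 37 nlp and 18 ins genes. The flp genes were flp-1, flp-4, flp-7, flp-13, flp-18, flp-20, flp-21 and flp-34. They include flp-18 and flp-21, which encode known ligands of the receptor NPR-1, and flp-13, another sleep-promoting gene of ALA. The ins genes were ins-1, ins-2, ins-4, ins-5, ins-8, ins-9, ins-11, ins-12, ins-14, ins-15, ins-16, ins-18, ins-25, ins-26, ins-27, ins-32, ins-34 and ins-35. They include ins-1 and ins-18, which are known to antagonise the insulin receptor, and ins-4, which is known to activate it.

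Genes that act after or beside the peptides were counted in the same way. Of 20 genes for peptide processing and dense core vesicles, 9 had a replicate 1 peak (45.0%, against 48.9% of all protein-coding genes) and 3 a replicate 2 peak (15%, against 4.86%). These 3 were tbc-8, a gene for a Rab GTPase-activating protein (score 19.6, 296 bp downstream), pamn-1, a gene for a peptide amidating enzyme (14.9, 154 bp upstream), and unc-31, the CAPS gene of dense core vesicle release (14.8, 49 bp upstream). The peaks of pamn-1 and unc-31 had ranks 1816 and 1896 of 2036, near the lowest replicate 2 score of 14.7. Replicate 1 had 8.90 at unc-31, 732 bp upstream, and 6.69 at pamn-1, 903 bp downstream, both away from the replicate 2 summits, and none at tbc-8. Of 107 neuropeptide receptor genes, 42 had a replicate 1 peak (39.3%) and 3 a replicate 2 peak (2.80%), at npr-19 (20.1), npr-24 (18.4) and npr-30 (17.0). Of 11 insulin signalling genes, from daf-2 to daf-16, 5 had a replicate 1 peak and 0 a replicate 2 peak. Of 8 further peptide precursor genes, daf-28 and pdf-1 among them, 4 had a replicate 1 peak and 0 a replicate 2 peak. The pooled list had 0 peaks at these 4 lists, against 1.64% of all protein-coding genes.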

How the data were processed

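ChIP-seq peak lists of 2 biological replicates of 1 group were used, on ce11. Per the labels' text records, the authors called peaks for each replicate and for both pooled, with a control, and derived the thresholded list by the irreproducible discovery rate; the sources used here do not name the caller, aligner, filters or threshold. The signal score and the -log10 q-value of each peak are the authors' deposited values. Scores were used to rank peaks within a list. Lists on ce10 were not used, and no coordinates were converted. All peak ends lay within the WBcel235 assembly, which has the ce11 sequence.

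Genes and 5′ ends came from the Ensembl 115 annotation, where annotated gene starts of trans-spliced genes can lie downstream of transcription starts. Python 3.11.15, pandas 2.3.3 and scipy 1.17.1 were used, and the assignment of peaks to genes was tested on simulated peaks. Members, gene lists and the motifs were chosen with earlier results of these data known. Named genes were those with a replicate 2, pooled or thresholded peak, the 5 strongest of each family in replicate 1, the antimicrobial nlp genes and, as full lists, flp and ins genes without a peak; others were chosen after their values were seen. Alternatives varied the distance (500 and 2000 bp), the side, the part of the peak, the 5′ end, the gene assignment and the list. Protein sequences were not used here. The replicates were not compared by a test.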

Additional observations from a re-analysis of the deposited data

How the results depend on the processing

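Under the alternatives, 80 values stayed within the interval of the value reported and 28 moved out of it, in most cases together with the background. With a distance of 500 bp the share of the 140 genes was 29.3% in replicate 1 (29.4% of all protein-coding genes), 1.43% in its strongest peaks (2.06%), 2.86% in replicate 2 (2.96%), and 0% in both replicates and in the pooled list. By family it was 45.2% for flp, 26.8% for nlp and 21.1% for ins genes in replicate 1, and 0% for ins genes in replicate 2. With 2000 bp it was 71.4% in replicate 1 (72.2%), 10.7% in both replicates (6.84%) and 70.4% for nlp genes. With upstream summits alone it was 28.6% in replicate 1 (26.1%), 3.57% in its strongest peaks (2.00%) and 2.14% in replicate 2 (3.03%), with 18.3% for nlp and 28.9% for ins genes in replicate 1 and 3.23% for flp genes in replicate 2. With the peaks above the median score of each list it was 27.9% in replicate 1 (27.9%) and 2.86% in replicate 2 (2.63%), with 41.9% for flp, 23.9% for nlp and 23.7% for ins genes in replicate 1 and 3.23% for flp genes in replicate 2. These alternatives count fewer or more peaks by construction. The share in both replicates became 6.43% without replicate 1 and 52.1% without replicate 2. The share with a peak in replicate 2 and among the strongest of replicate 1, a count added after seeing the data, was 2.86% as reported (0.555% of all protein-coding genes), 0% at 500 bp (0.21%) and 0.714% with upstream summits alone (0.28%), and it was 6.43% without replicate 1 and 7.86% without replicate 2. The alternatives in which its interval still left out the background are given in the account of genes in both lists.

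In replicate 1 the 140 genes stood 3.29 percentage points above all protein-coding genes as reported, and between -1.06 and 3.81 points under the alternatives fixed at the outset. The sign therefore depends on the setting. The flp share of replicate 1 was 18.9 points above that of all protein-coding genes as reported and 8.45 (at 2000 bp) to 25.5 points (upstream summits alone) above it under the alternatives; its interval left out the background in 3 of these, given with their values in the account of the families. In replicate 2 the flp share was 0.199 to 8.88 points above it. Whether a gene with no listed peak is unbound cannot be told from lists of unknown depth. No paired analysis was possible because the replicates belong to 1 group and no groups are compared.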

Other observations

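The neighbouring FMRFamide-like genes of X, flp-28, flp-3 and flp-2, have their strongest replicate 1 summits inside another protein-coding gene, W07E11.1. The scores were 12.8 at flp-28 (154 bp upstream, in an intron of W07E11.1), 9.91 at flp-3 (762 bp upstream, in an intron) and 6.81 at flp-2 (441 bp upstream, in an exon). They are the 3 flp genes with a family member within 10000 bp, and none had a replicate 2 peak. The tandem genes ins-21, ins-22 and ins-23 on III each had a replicate 1 peak of their own, with scores of 12.4, 17.9 and 12.1, and likewise none in replicate 2.

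The replicate 1 summit of nlp-81 lies in a stretch of repeats of AGGCA. Its window of 201 bases held 11 copies on 1 strand, a number reached by 21 of 30000 replicate 1 windows (0.0700%). The 51 bases round the summit occur once in the assembly. These genes were named after their values were seen.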
